A study of Mus musculus with 12 samples.

Results

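The TRAV6 family of T cell receptor alpha chains was taken as every row of the deposited alpha chain (TRA) table whose V segment, stripped of its allele, of any delta designation and of the D or N letter of a duplicated copy, begins with TRAV6-. This gave 7 segments, TRAV6-1 to TRAV6-7, of the 47 TRAV segments with productive reads. They held 751 of 6563 productive clonotypes and 65263 of 623850 productive TRA reads, which is 10.5%. The family was chosen by its read shares, which differed between tumor and lymph node in these same libraries, so every tumor against lymph node comparison of shares or of clonotypes below is a description with no test. Libraries came from mice at day 10 after MC38 injection, MC38 being a transplantable mouse colon carcinoma line. CD8+ cells were sorted by a tetramer of Rpl18, that is, a labelled MHC complex that binds T cells recognising an Rpl18 peptide. They were sorted from the tumor or from the tumor draining lymph node (TDLN). The 4 groups of 3 libraries were KO tumor, WT tumor, KO TDLN and WT TDLN, where KO means a CD8-specific knockout of TrIP, a T cell membrane protein, and WT means wild type. The labels do not name the driver of the knockout, the strain or the age of the mice, and the knockout and the CD8 identity of the cells could not be checked because no expression values were analysed here.

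An alpha chain is made when a developing T cell joins 1 TRAV segment to 1 TRAJ segment in its DNA. Bases are trimmed and added at the join, and the resulting loop, CDR3, runs from the conserved cysteine of the V segment to the phenylalanine, or a residue in its place, of the J segment and touches the presented peptide. Because the join is random, many rearrangements are out of frame, and a T cell may carry such a silent rearrangement on its other chromosome beside the one that encodes its receptor. Mouse TRAV genes were copied in blocks during evolution, so that several TRAV6 segments exist in near-identical D and N copies whose reads cannot be told apart with confidence. These copies were pooled. All 13 TRAV6 names in the table matched RefSeq gene symbols of assembly GRCm38.p6, on chromosome 14, where 15 TRAV6 segments are listed. In that list TRAV6-1 and TRAV6-2 stand near the start of the locus as single genes, TRAV6-3 and TRAV6-4 have a D copy each, and TRAV6-5, TRAV6-6 and TRAV6-7 have a D and an N copy each.

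Depth was 15828 to 94872 productive TRA reads per library (median 48625.5). Reads were counted without molecular identifiers, so intervals (95%, Wilson) and floors (3 counts) cover counting error only. In bulk RNA, fewer cells of a clone and less receptor RNA per cell cannot be told apart. The runs of 4 libraries, all from TDLN (KO TDLN 1, KO TDLN 2, WT TDLN 1 and WT TDLN 3), were noted as timed out. Library names begin with a letter shared by 1 tumor and 1 TDLN library, and whether a letter marks a mouse was not established.

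Large TRAV6 clonotypes are printed here, 5′ to 3′, because most values below rest on them. The list is a selection. A TRAV6-6 clonotype with TRAJ49 (1462 reads) and a second one with TRAJ22 (1252 reads) are not printed, though some printed ones are smaller. A clonotype groups the reads with the same CDR3 bases, TRAV and TRAJ. Each is named here by its V and J segment, with a letter or form number where 2 of those printed share both. Capitals mark the junction, meaning bases that lie outside both the longest V-side stretch seen in TRAV6 clonotypes with 3 other TRAJ segments and the longest J-side stretch seen in clonotypes of the same TRAJ with 3 other TRAV families. This split was inferred from the table and is no germline alignment. In TRAV6-5/TRAJ23, which lacks the starting cysteine, the 2 bases marked as V-side cannot be told from junction bases. Sequences with TRAJ7 were deposited 1 base short of the last codon, and their amino acids were read with that base restored.
TRAV6-1/TRAJ30: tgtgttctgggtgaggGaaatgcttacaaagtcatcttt
TRAV6-2/TRAJ7: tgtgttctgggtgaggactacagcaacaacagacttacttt
TRAV6-5/TRAJ23: ggGACttataaccaggggaagcttatcttt
TRAV6-6/TRAJ42: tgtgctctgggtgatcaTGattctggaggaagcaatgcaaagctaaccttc
TRAV6-6/TRAJ7 a: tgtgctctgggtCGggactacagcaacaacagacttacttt
TRAV6-6/TRAJ22: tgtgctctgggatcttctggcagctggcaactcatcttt
TRAV6-6/TRAJ7 b: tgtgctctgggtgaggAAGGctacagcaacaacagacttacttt
TRAV6-6/TRAJ33 form 1: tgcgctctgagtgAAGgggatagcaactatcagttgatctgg
TRAV6-6/TRAJ33 form 2: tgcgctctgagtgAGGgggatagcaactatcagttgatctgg
TRAV6-7/TRAJ7 a: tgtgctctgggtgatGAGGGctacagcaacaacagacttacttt
TRAV6-7/TRAJ7 b: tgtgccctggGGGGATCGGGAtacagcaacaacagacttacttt
TRAV6-7/TRAJ28: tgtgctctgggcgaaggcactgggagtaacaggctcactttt
TRAV6-7/TRAJ17: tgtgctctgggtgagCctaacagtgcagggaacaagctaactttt

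The family made up 29.4%, 2.12% and 8.75% of productive TRA reads in KO tumor 1, 2 and 3, and 0.00105%, 5.84% and 20.8% in WT tumor 2, 3 and 4. It made up 11.3%, 8.01% and 4.59% in KO TDLN 1, 2 and 3, and 7.53%, 9.39% and 84.2% in WT TDLN 1, 3 and 4. The groups overlapped in both tissues, WT TDLN 4 stood far above all other libraries, and WT tumor 2 held a single productive TRAV6 read. Among TRAV families the rank of TRAV6 by reads lay between 1 (WT TDLN 4) and 8 (WT tumor 2). In tumor the mean share was 13.4% ± 14.2 in KO and 8.88% ± 10.7 in WT libraries (SD, n = 3 each), a difference of 4.55 percentage points that lay within the spread (exact two-sided permutation test, p = 0.6, adjusted p = 0.925 over 7 tests). The difference was -3.44 points without KO tumor 1 and 0.114 points without WT tumor 2. In TDLN the mean share was 7.98% ± 3.38 in KO and 33.7% ± 43.7 in WT libraries (SD, n = 3 each), a difference of -25.7 points (exact p = 0.5, adjusted p = 0.925, smallest possible p 0.1), and it was -0.476 points without WT TDLN 4. Libraries that share clonotypes are treated as independent by these tests.

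**Figure D1:**
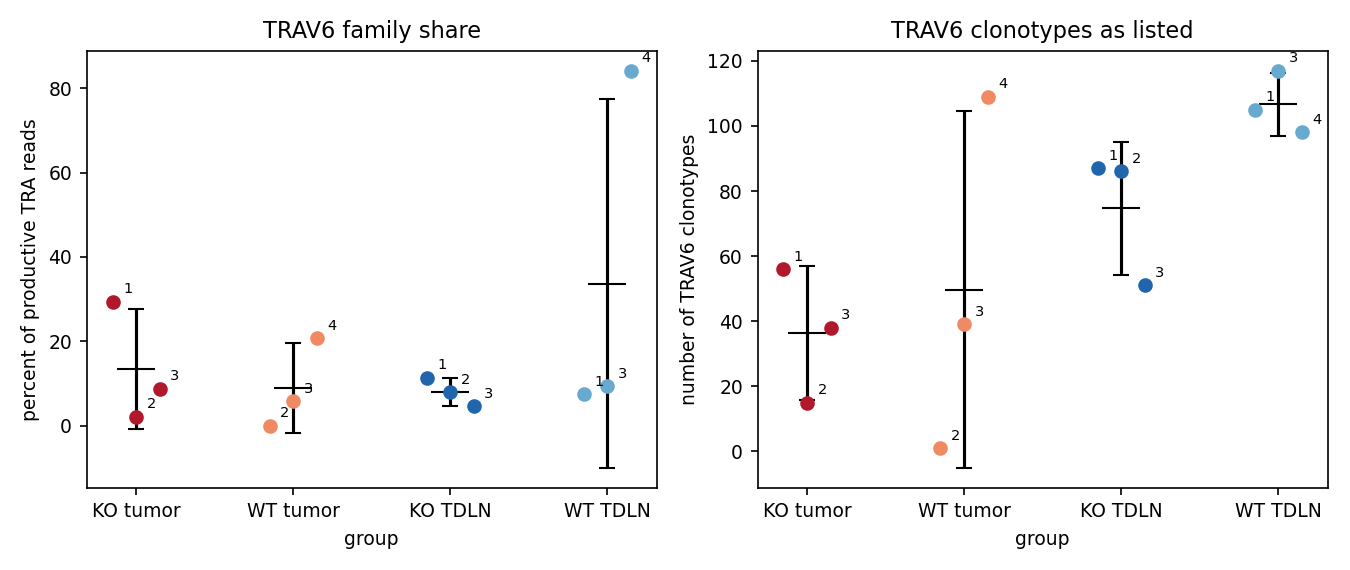
Percent of productive TRA reads (left) and number of clonotypes (right) of the TRAV6 family in each library, numbered as in the labels, by group; bars give the mean and SD of 3 libraries. WT TDLN 4 reaches 84.2% of reads, while the other 11 libraries lie between 0.00105% and 29.4%.

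In tumor, 4 of 7 members (TRAV6-1, TRAV6-5, TRAV6-6 and TRAV6-7) reached 0.1% of productive reads in at least 1 library. A mean share lower in tumor than in TDLN was found for 5 of 7 members, against 72.3% of all 47 TRAV segments. Under 0.1% in all 6 tumor libraries stood 3 of 7 members (TRAV6-2, TRAV6-3 and TRAV6-4), against 34.0% of all segments. The values of all members by library are drawn in the heat map, in which the upper rows of the tumor columns are mostly without reads.

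**Figure D2:**
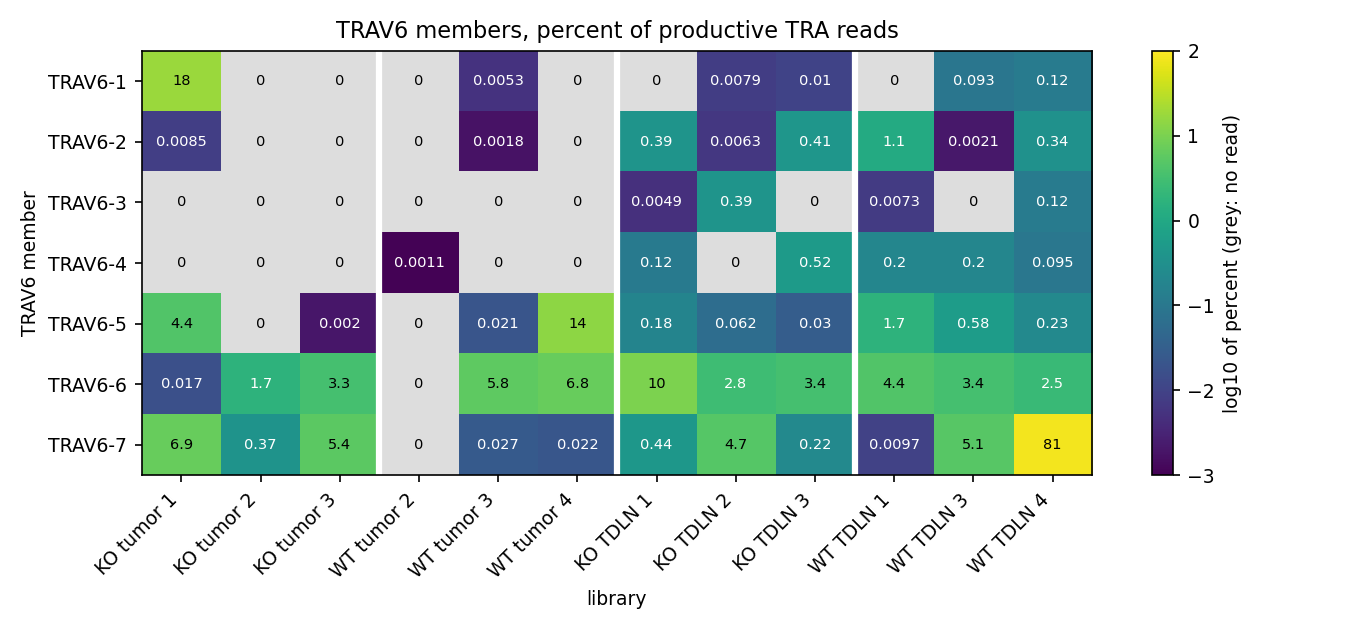
Percent of productive TRA reads of each TRAV6 member (rows) in each of the 12 libraries (columns), coloured by its log10, with grey for no read. TRAV6-6 and TRAV6-7 have reads in 11 libraries, and TRAV6-2, TRAV6-3 and TRAV6-4 stay under 0.1% in every tumor library.

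TRAV6-1 was high in a single library. It took 18.1% of productive TRA reads in KO tumor 1 and had no productive read in KO tumor 2 and 3, against 0%, 0.00531% and 0% in WT tumor 2, 3 and 4. In TDLN it reached 0%, 0.00792% and 0.00998% in KO libraries 1, 2 and 3 and 0%, 0.0929% and 0.120% in WT libraries 1, 3 and 4. Its single high value was 1 clonotype, TRAV6-1/TRAJ30, which took 17.3% (16.9% to 17.8%) of productive reads and ranked first among all TRA clonotypes of KO tumor 1. The same nucleotide sequence had 1 read in WT tumor 3 and 2 reads in KO TDLN 3.

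TRAV6-2, the neighbour of TRAV6-1 in the family's locus order, had most of its productive reads in TDLN. It had 2, 0 and 0 productive reads in KO tumor 1, 2 and 3 and 0, 1 and 0 in WT tumor 2, 3 and 4. The 2 reads of KO tumor 1 carried the CDR3 amino acids of TRAV6-1/TRAJ30, the leading clonotype of that library. In TDLN it took 0.393%, 0.00634% and 0.414% in KO libraries 1, 2 and 3 and 1.14%, 0.00206% and 0.341% in WT libraries 1, 3 and 4. The highest value was TRAV6-2/TRAJ7, at 1.13% of WT TDLN 1. Among rearrangements that encode no receptor, TRAV6-2 had 275 reads in KO tumor 1, of which 268 were 1 TRAJ12 sequence.

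TRAV6-3 had no productive read in any tumor library, which allows a share of up to 0.000899% over the 6 tumor libraries together. In TDLN it reached 0.00494%, 0.390% and 0% in KO libraries 1, 2 and 3 and 0.00729%, 0% and 0.120% in WT libraries 1, 3 and 4. Most of its productive reads (90.5%) had a CDR3 that began with CAM and a residue 4 other than S. Non-productive TRAV6-3 reads numbered 481 in WT tumor 3 and 9 in WT tumor 4, against 79 in KO TDLN 1, 6540 in KO TDLN 2 and 3671 in WT TDLN 1. The absence from tumor thus held for productive rearrangements of TRAV6-3 and not for all of its transcripts.

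TRAV6-4 had 1 productive tumor read, in WT tumor 2, and none in the other 5 tumor libraries. That read, joined to TRAJ45, has the nucleotide sequence of a TRAV12-2 clonotype with 1326 reads (1.40%) in the same library. In TDLN the share was 0.116%, 0% and 0.524% in KO libraries 1, 2 and 3 and 0.199%, 0.200% and 0.0948% in WT libraries 1, 3 and 4. TRAV6-4 was thus present in 5 of 6 TDLN libraries, each time at low level, and its CDR3 sequences mostly began with CAL and a residue 4 other than G or S (80.0% of 30 clonotypes). It had 215 non-productive reads in WT tumor 2.

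TRAV6-5 was high where 1 clonotype was. Its share was 4.44%, 0% and 0.00205% in KO tumor 1, 2 and 3 and 0%, 0.0213% and 13.9% in WT tumor 2, 3 and 4. In TDLN it was 0.183%, 0.0618% and 0.0299% in KO libraries 1, 2 and 3 and 1.72%, 0.584% and 0.227% in WT libraries 1, 3 and 4. The KO and WT TDLN libraries did not overlap, KO being lower, which held for 6.38% of all 47 segments in that direction. The intervals of the nearest values overlapped, at 0.146% to 0.229% in KO TDLN 1 and 0.164% to 0.315% in WT TDLN 4. Most TRAV6-5 reads were TRAV6-5/TRAJ23, at 3.38% of KO tumor 1, 13.6% of WT tumor 4 and 1.32% of WT TDLN 1. It had 6 reads in KO TDLN 2 and 1 read in KO TDLN 3. This CDR3 is 10 residues long and lacks the cysteine at its start. All rows with this nucleotide sequence were named with a TRAV6 segment, and the bases that led to that name are not in the table.

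TRAV6-6, like TRAV6-7, had productive reads in 11 of 12 libraries. It took 0.0169%, 1.74% and 3.34% in KO tumor 1, 2 and 3 and 0%, 5.79% and 6.85% in WT tumor 2, 3 and 4. In TDLN it took 10.2%, 2.79% and 3.39% in KO libraries 1, 2 and 3 and 4.45%, 3.40% and 2.46% in WT libraries 1, 3 and 4. All 6 TDLN libraries stood at 2.46% or above, as did 3 of the tumor libraries. The leading clonotype differed between libraries: TRAV6-6/TRAJ42 in WT tumor 3 (5.68%) and KO TDLN 3 (2.49%), TRAV6-6/TRAJ7 a in WT tumor 4 (4.81%), TRAV6-6/TRAJ22 in KO TDLN 1 (8.37%), TRAV6-6/TRAJ7 b in WT TDLN 1 (3.05%), and TRAV6-6/TRAJ33 in KO tumor 2 and KO tumor 3. The last was present in 2 nucleotide forms, printed above, whose amino acids are identical. Form 1 took 0.657% of KO tumor 2 and 1.18% of KO tumor 3, and form 2 took 1.06% and 0.625% of the same libraries. Further TRAV6-6 clonotypes of 1% or more were joined to TRAJ22 in WT tumor 4 (1.82%), to TRAJ2 in KO TDLN 2 (1.11%) and to TRAJ31 in WT TDLN 4 (2.12%). One joined to TRAJ49 took 1.02% of KO tumor 3 and 1.99% of WT TDLN 3, and one joined to TRAJ4 took 0.471% and 1.01% of the same libraries.

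TRAV6-7 held the largest clonotype of the family. Its share was 6.86%, 0.374% and 5.41% in KO tumor 1, 2 and 3 and 0%, 0.0266% and 0.0218% in WT tumor 2, 3 and 4. All 3 KO tumor libraries lay above all 3 WT tumor libraries, which held for 6.38% of the 47 segments in that direction and for 1 of 7 members. In TDLN its share was 0.442%, 4.75% and 0.225% in KO libraries 1, 2 and 3 and 0.00972%, 5.10% and 80.8% in WT libraries 1, 3 and 4, and the groups overlapped. The KO tumor reads came from different clonotypes, TRAV6-7/TRAJ28 in KO tumor 1 (6.81%) and TRAV6-7/TRAJ7 b in KO tumor 3 (5.36%), and the second also took 4.12% of WT TDLN 3. TRAV6-7/TRAJ17 took 4.15% of KO TDLN 2 and had 2 reads in WT tumor 4. In WT TDLN 4, the shallowest library, TRAV6-7/TRAJ7 a took 77.5% (76.9% to 78.2%) of productive reads and was found in no other library. A TRAJ42 clonotype of TRAV6-7 took 1.01% there. The row of TRAV6-7/TRAJ7 a was called out of frame as deposited, and with the deposited frame of TRAJ7 rows the family share of WT TDLN 4 was 23.7% in place of 84.2%.

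Genotypes were compared for each member by the quasi-likelihood test of edgeR on counts, with all 47 TRAV segments in the fit. No member passed an adjusted p of 0.05 in tumor or in TDLN, and 0% of the 47 segments did in either tissue. In tumor TRAV6-7 was 8.01 higher in KO than in WT libraries on the log2 scale (SE 2.89, unadjusted p = 0.00575, edgeR adjusted p = 0.155), and TRAV6-1 was 11.6 higher (SE 4.89, unadjusted p = 0.0183, edgeR adjusted p = 0.155). The TRAV6-1 value rests on 1 KO library and on 3 reads in WT libraries. An unadjusted p under 0.05 was found for these 2 members and for 11 of the 47 segments in all in tumor, and for no member and 1 segment in TDLN. DESeq2 called 2 segments in tumor and 1 in TDLN, and limma called 0 in both, none of them in the family. TRAV6-5 was -1.65 (SE 3.19) and TRAV6-6 was -1.31 (SE 2.77) in KO against WT tumor on the same scale, and the other 3 members had too few tumor reads for a fold. With standard errors of this size, the lack of calls does not show that the genotypes had equal levels.

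The family was made of a few large clonotypes and a long tail. Productive TRAV6 clonotypes as listed numbered 56, 15 and 38 in KO tumor 1, 2 and 3 and 1, 39 and 109 in WT tumor 2, 3 and 4. They numbered 87, 86 and 51 in KO TDLN 1, 2 and 3 and 105, 117 and 98 in WT TDLN 1, 3 and 4. In TDLN every KO library had fewer than every WT library, a difference of -32 clonotypes that gave the smallest possible p (exact permutation test, p = 0.1, adjusted p = 0.607), and it was 16 in the other direction with the deposited frame of TRAJ7 rows. In tumor the difference was -13.3 (exact p = 0.8, adjusted p = 0.925), and 16.3 without WT tumor 4. When sequences that differed by 1 base were merged into a neighbour with at least 100 times its reads, the counts were 23, 5 and 17 in KO tumor against 1, 13 and 46 in WT tumor libraries, and 48, 51 and 27 in KO TDLN against 51, 70 and 46 in WT TDLN libraries, and the TDLN groups overlapped.

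The largest TRAV6 clonotype held 59.0%, 50.2% and 61.2% of the TRAV6 reads in KO tumor 1, 2 and 3, and 97.2% and 65.6% in WT tumor 3 and 4. It held 73.8%, 51.9% and 54.3% in KO TDLN 1, 2 and 3 and 40.6%, 43.9% and 92.1% in WT TDLN 1, 3 and 4. The 3 largest together held 86.4% to 97.9% in the 5 tumor libraries with more than 1 productive read and 73.1% to 95.8% in TDLN. In 2 libraries, KO tumor 1 and WT TDLN 4, a TRAV6 clonotype was the largest of all TRA clonotypes. Over all libraries, 19 TRAV6 clonotypes reached 1% of the productive reads of a library.

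**Figure D3:**
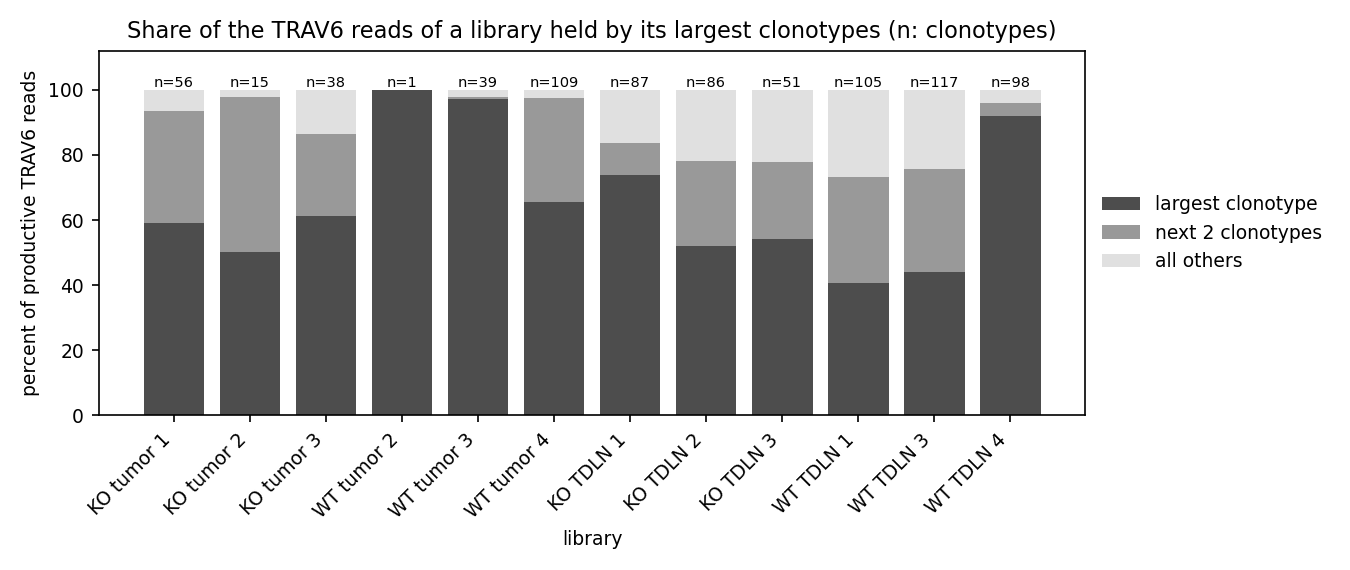
Share of the productive TRAV6 reads of each library held by its largest clonotype, the next 2 and all others, with the number of clonotypes above each bar. The largest holds 40.6% to 97.2% in the 11 libraries with more than 1 productive TRAV6 read, and WT tumor 2 has 1.

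Sharing of TRAV6 clonotypes between tumor and TDLN was small by number, but the shared clonotypes included leading ones. Of 247 found in tumor and 541 found in TDLN, 37 were found in both, which is 14.98% of the tumor list and 6.84% of the TDLN list. These lists include many single-read clonotypes, and the same shares were not counted for other TRAV. At any number of reads, 2 of 6 tumor and TDLN pairs with the same letter shared a clonotype. Of all 66 pairs of libraries, within and between tissues, 20 did. With 10 reads or more in both libraries, none of the 6 pairs and 7 of the 66 shared a clonotype. All 7 thus joined libraries with different letters, so the sharing seen at that level did not follow the letters. Whether same-letter pairs share less often than others cannot be told from 6 pairs. WT tumor 3 and KO TDLN 3 shared 2 clonotypes with 10 reads or more in both, with 97.5% and 54.8% of their TRAV6 reads, mostly TRAV6-6/TRAJ42. KO tumor 3 and WT TDLN 3 shared 3, with 78.3% and 75.8%, led by TRAV6-7/TRAJ7 b. WT tumor 4 and WT TDLN 1 shared 2, with 88.7% and 25.6%, which were TRAV6-5/TRAJ23 and TRAV6-6/TRAJ7 a. These pairs cross letters, and in 2 of them genotypes, at the nucleotide level.

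Over all libraries, 41 TRAV6 clonotypes (5.46%) were found under more than 1 letter. They held 93.8%, 81.2% and 99.2% of the TRAV6 reads in KO tumor 1, 2 and 3 and 98.8% and 98.5% in WT tumor 3 and 4, but 0 of 1 read in WT tumor 2. In TDLN they held 0%, 71.3% and 68.5% in KO libraries 1, 2 and 3 and 25.9%, 76.0% and 0.443% in WT libraries 1, 3 and 4. A single read under a second letter was enough to be counted here. TRAV6-1/TRAJ30, with 4100 reads in KO tumor 1, was counted through 1 read in WT tumor 3 and 2 reads in KO TDLN 3. With 10 reads or more under each of at least 2 letters, 10 TRAV6 clonotypes remained. The clonotypes of all other TRAV families found under more than 1 letter held 71.7% to 99.1% of their reads in tumor and 12.4% to 78.2% in TDLN. Why libraries with different letters hold the same nucleotide sequences was not tested. With these clonotypes left out, the KO minus WT difference of the family share was 0.543 points in tumor.

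By amino acids, 32 of 518 TRAV6 CDR3 sequences were found under at least 2 letters and 7 under at least 3. The 7 were those of TRAV6-6/TRAJ42, TRAV6-6/TRAJ33, TRAV6-1/TRAJ30 and TRAV6-5/TRAJ23 (5 letters), and 3 more that differ from TRAV6-5/TRAJ23 at 1 residue each. The largest nucleotide sequences of these 3 had 65, 58 and 10 reads, none of them outside KO tumor 1, WT tumor 4 and WT TDLN 1, where TRAV6-5/TRAJ23 was abundant. Some letters of the named clonotypes rest on few reads. As printed, TRAV6-6/TRAJ42 had 1 read in KO tumor 1, and TRAV6-6/TRAJ33 form 2 had 1 read in WT tumor 3. TRAV6-1/TRAJ30 had 1 read in WT tumor 3 and 2 in KO TDLN 3. TRAV6-5/TRAJ23 had 6 reads in KO TDLN 2 and 1 in KO TDLN 3.

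TRAJ partners were described next. TRAV6 was joined to 34 of the 44 TRAJ segments seen with any TRAV, 17 of them in tumor and 32 in TDLN, with 17 in TDLN and not in tumor and 2 the other way. TDLN also held more TRAV6 clonotypes, 541 against 247 in tumor. Some tumor partners rest on very few reads, such as TRAJ21 (1 read) and TRAJ17 (2 reads). Such counts were not made for other TRAV. In single libraries the number of TRAJ was 6, 3 and 7 in KO tumor 1, 2 and 3 and 1, 4 and 6 in WT tumor 2, 3 and 4, against 9, 17 and 14 in KO TDLN and 10, 13 and 8 in WT TDLN libraries. A further 5 TRAV6 clonotypes, of 1 read each, had no TRAJ named and are not counted here. The partners with most clonotypes were TRAJ7, TRAJ22 and TRAJ23.

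TRAJ7 took 27.3% of TRAV6 clonotypes and 3.03% of the clonotypes of all other TRAV. After merging of 1-base variants these were 22.3% and 2.81%. The share of TRAJ7 among clonotypes was higher in TRAV6 than in other TRAV in 9 of 12 libraries. In the other 3 no TRAV6 clonotype used TRAJ7: it took 0 of 56 TRAV6 clonotypes against 9.96% of others in KO tumor 1, 0 of 15 against 1.15% in KO tumor 2, and 0 of 1 against 0.244% in WT tumor 2. TRAJ7 held more TRAV6 reads than all other TRAJ together in KO tumor 3 (61.7%), WT TDLN 1 (64.9%) and WT TDLN 4 (94.4%), and no TRAV6 reads in KO tumor 1, KO tumor 2 and WT tumor 2. Its V-side partners covered 6 of the 7 members as named. The CDR3 amino acids of TRAV6-6/TRAJ7 b alone were found under 6 members, so this count may include the naming error described below.

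TRAJ22 took 9.32% of TRAV6 clonotypes and 7.78% of others, and 5.99% and 8.32% after merging, so that its direction turned. It was found with TRAV6 in 4 libraries, and TRAV6-6/TRAJ22 of KO TDLN 1 held 65.9% of its reads. TRAJ23 took 8.66% of TRAV6 clonotypes and 0.981% of others, and 9.54% and 1.24% after merging, and 97.2% of its reads were TRAV6-5/TRAJ23. TRAJ42 took 7.19% of TRAV6 clonotypes and 20.8% of others. Clonotypes are listed per library and many are single reads near a large one, so these shares are counts and carry no test.

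**Figure D4:**
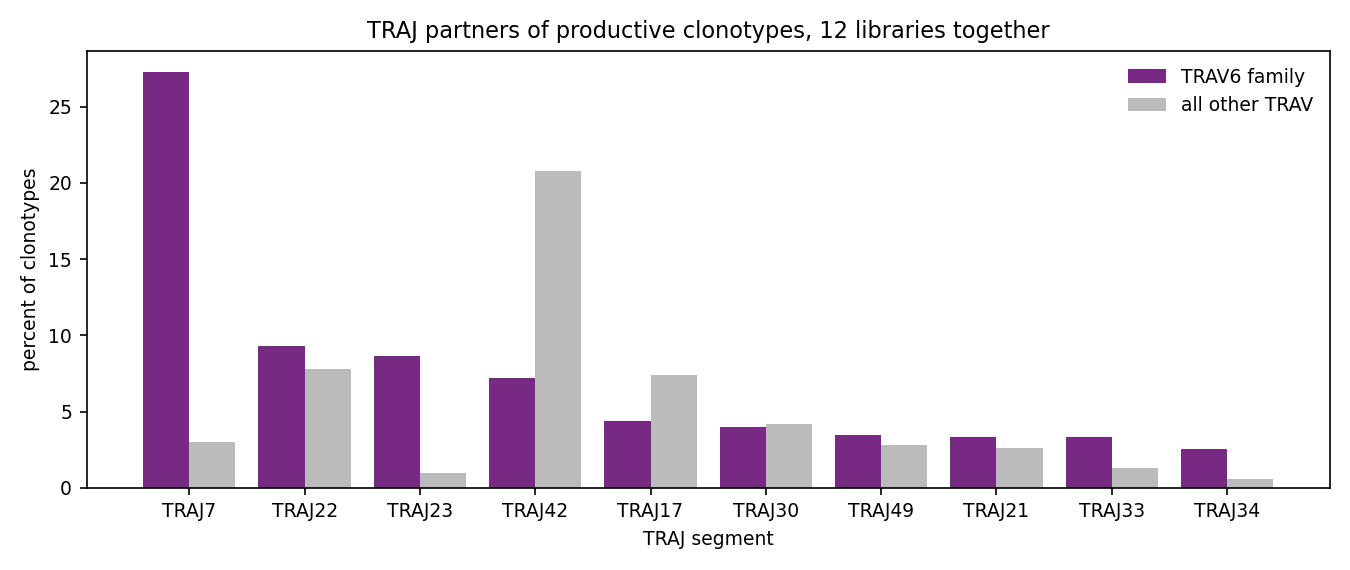
Percent of productive clonotypes that use each of the 10 TRAJ segments most often joined to TRAV6, for the TRAV6 family and for all other TRAV segments, over the 12 libraries together. TRAJ7 takes 27.3% of TRAV6 clonotypes and 3.03% of others.

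The V-side residues of the CDR3 divided the members. CALG began 47.4% of the 751 TRAV6 clonotypes and 66.6% of their reads, against 0.740% of the clonotypes of other TRAV. It began 61.3% of TRAV6-6 and 60.8% of TRAV6-7 clonotypes. CVLG began 61.8% of TRAV6-1 and 71.4% of TRAV6-2 clonotypes, 26 clonotypes of other TRAV6 members, and 1 clonotype outside the family. Residue 3 was M in 11 of 20 TRAV6-3 clonotypes, of which 6 began with CAMS. Among the 356 CALG clonotypes, residue 5 was D or E, both acidic, in 61.2%.

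CDR3 sequences without a cysteine at the start made up 13.6% of TRAV6 clonotypes and 8.21% of the clonotypes of other TRAV. They were most frequent in TRAV6-5, with 50.5% of clonotypes and 91.9% of reads, where TRAV6-5/TRAJ23 is counted.

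Mean CDR3 length, each clonotype counted once, was 14.3 ± 0.889 amino acids in KO tumor and 14.6 ± 2.38 in WT tumor libraries (SD, n = 3 each). It was 14.6 ± 0.811 in KO TDLN and 14.5 ± 0.283 in WT TDLN libraries (SD, n = 3 each). Library means ran from 12.1 in WT tumor 4, where 54 of 109 TRAV6 clonotypes used TRAJ23, to 16.8 in WT tumor 3. Variants near a large clonotype and sequences without a starting cysteine are counted in these means. CDR3 length was not used to choose the family. Tumor minus TDLN was -0.0696 amino acids, within the spread (exact permutation within genotype, p = 0.925, adjusted p = 0.925). The difference between TRAV6 and all other TRAV of the same library was -0.190 amino acids, positive in 5 of 12 libraries (exact sign-flip permutation test, p = 0.682, adjusted p = 0.925).

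Many TRAV6 reads came from rearrangements that encode no receptor. Of 84733 TRAV6 reads in all, 23.0% were non-productive, against 13.7% for all other TRAV. Of the 19470 non-productive TRAV6 reads, 85.1% were held by 4 sequences. The first 2 are printed because they carry most TRAV6-3 reads of the data set.
TRAV6-3, TRAJ6, out of frame: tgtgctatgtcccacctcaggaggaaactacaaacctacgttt
TRAV6-3, TRAJ49, out of frame: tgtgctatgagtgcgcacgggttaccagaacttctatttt
The TRAJ6 sequence had 7461 reads, of which 6934 were named TRAV6-3, and made up 9.42% of all TRA reads of KO TDLN 2, 0.607% of WT tumor 3 and 0.0124% of WT tumor 4. The TRAJ49 sequence had 4129 reads, of which 3633 were named TRAV6-3, all in WT TDLN 1, where it made up 4.43% of TRA reads. A TRAJ52 sequence, mostly named TRAV6-7, made up 4.76% of KO tumor 2 and 2.39% of KO tumor 3, and had 2 reads in WT tumor 2 and 1 read in WT tumor 3. A TRAJ39 sequence, also named TRAV6-7, made up 1.46% of WT tumor 4 and 0.354% of WT TDLN 1, with 1 read in KO TDLN 2. In KO tumor 2 non-productive TRAV6 reads (72.6% of the family) outnumbered productive ones, and likewise in KO TDLN 2 (59.3%).

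**Figure D5:**
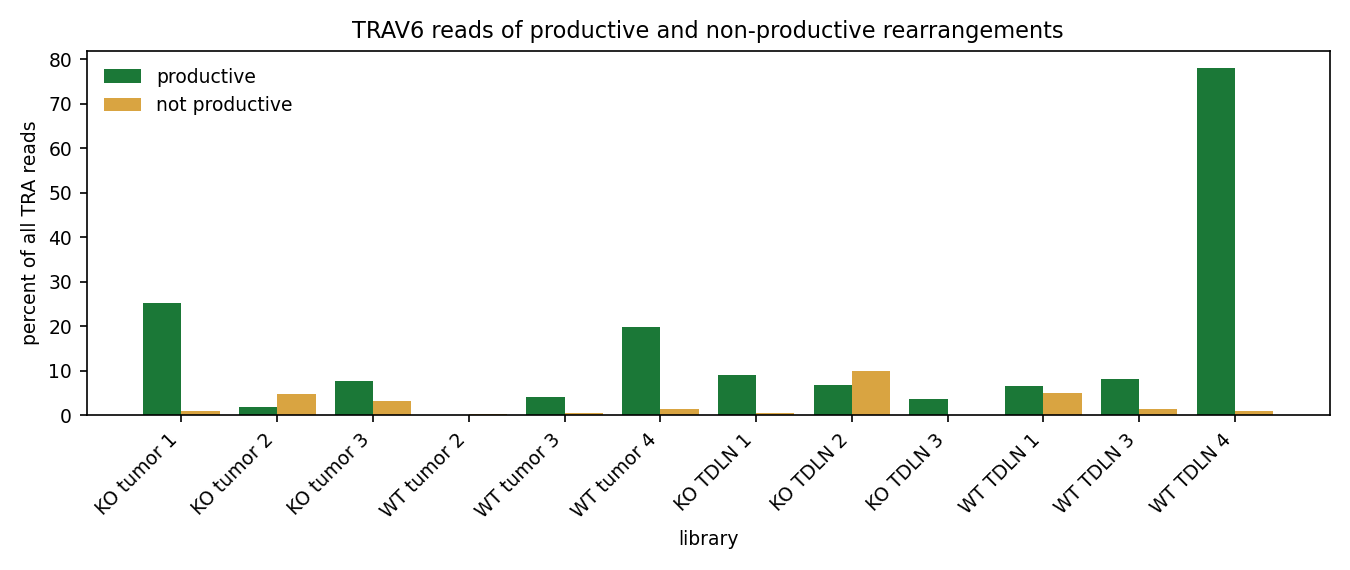
Percent of all TRA reads of each library that belong to productive and to non-productive TRAV6 rearrangements. Non-productive reads exceed productive ones in KO tumor 2, WT tumor 2 and KO TDLN 2.

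Counted by clonotypes, the productive share of TRAV6 was 55.4% ± 27.8 in KO tumor against 57.1% ± 35.6 in WT tumor libraries, and 74.1% ± 18.3 in KO TDLN against 74.6% ± 12.3 in WT TDLN libraries (SD, n = 3 each). Over the 12 libraries it averaged 65.3% ± 23.5 for TRAV6 and 75.3% ± 6.48 for all other TRAV (SD, n = 12). The difference within libraries was -9.94 percentage points, positive in 5 of 12 libraries (exact sign-flip permutation test, p = 0.173, adjusted p = 0.607).

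Member names within the family carry an error that can be read from the table. Of 98 productive CDR3 sequences with at least 10 reads in a library, 29 appeared there under 2 or more members, with 1.44% of the reads under a name other than the leading one. Of 28 non-productive sequences, 16 did, with 9.78% of reads. Small values of one member in a library where another is abundant, such as the TRAV6-1 reads of WT tumor 3 that carry TRAV6-6/TRAJ42, are of this size.

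Over the 12 libraries the other TRAV segments whose shares ran most like the TRAV6 sum were TRAV9-4 (Spearman's rho 0.712), TRAV1 (0.556) and TRAV12-3 (0.455). The points share libraries and totals of reads, and the values are a description.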

How the data were processed

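TCR transcripts of sorted cells were amplified with TCR-specific primers from polyA RNA, per the labels' protocols. The deposited TRA table holds a count of reads for each CDR3 rearrangement and library, in TRUST4 report form per the file headers. Its version was not found in the labels or headers, and GRCm39 is the build in the submitters' processing notes. The run log gives the deposited count of assembled reads. Rows in frame without a stop were kept as productive, with a separate rule for TRAJ7 rows. CDR3 sequences without a starting cysteine were kept too, with 17.7% of productive TRAV6 reads, although their frame with the V segment cannot be read from the CDR3. TRAJ7 rows were taken to end 1 base early. They were read with that base restored if their length left a remainder of 2 in codons of 3 bases. All other TRAJ7 rows were counted as non-productive, also those in frame as deposited. This rule was chosen after values were seen. Libraries were matched by name, and WT tumor 2 carries number 1 in the table. The members and lists were chosen with earlier results of these data known. Named were all 7 members, each library's largest TRAV6 clonotype, those of 1% or more or under 3 letters, 3 TRAJ and 3 TRAV.

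Segments were tested on counts with edgeR 4.0.16 in R 4.3.3, with library totals as scale, all 4 groups in the fit and a filter of 10 reads and 0.1% in a library, which all 47 segments passed. Adjusted p-values are Benjamini-Hochberg. DESeq2 1.42.0 and limma 3.58.1 were alternatives, and single values had exact permutation tests (scipy 1.17.1, Python 3.11.15). Nothing in the labels says that libraries came from separate mice, so p-values measure the spread between these libraries.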

Additional observations from a re-analysis of the deposited data

How the results depend on the processing

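The family share and its clonotype number rested on single libraries and on the frame of TRAJ7 rows. Leaving out each library in turn gave KO minus WT shares of -3.44 to 10.5 points in tumor and -38.8 to -0.476 points in TDLN, clonotype numbers of -37.7 to 16.3 in tumor and -38.2 to -20.2 in TDLN, CDR3 lengths of -0.610 to 0.569 amino acids for tumor minus TDLN and -0.463 to 0.125 for TRAV6 minus other TRAV, and productive shares of -12.1 to -6.35 points. With TRAJ7 rows as deposited, the TDLN share difference was -2.98 points, the TDLN clonotype difference 16, the tumor minus TDLN length 0.0571 and the productive share difference -21.5 points (exact permutation p = 0.0234, with a range of p over the alternatives of 0.0234 to 0.343). Without the largest clonotype of each library, the TDLN share difference was -10.1 points. Rarefied to the smallest library, the tumor clonotype difference was 3.802. The tumor minus TDLN length was 0.0397 without single-read clonotypes and 0.123 with 1-base variants merged. Chosen after seeing the data, leaving out CDR3 sequences without a starting cysteine gave a KO minus WT share of 8.02 points in tumor. It also gave 1.33 clonotypes in tumor and lengths of 0.206 and 0.0200. Likewise chosen after seeing the data, the 2 against 2 TDLN libraries noted as timed out gave a share difference of 1.22 points. Apart from the TRAJ7 frame, the cause of these changes was not tested.

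Of the TRAV segments, edgeR called 0 in both tissues under every scaling and frame tried. Lifting the filter was no separate alternative, since all 47 segments passed it. DESeq2 called 1 in TDLN and 2 in tumor. Leaving out a library, with edgeR, gave 0 to 1 in tumor (1 without WT tumor 4) and 0 in TDLN. With the replicate number as a block, 0 were called in both tissues, but these numbers do not follow the letters. Deviations of same-numbered libraries of different groups had a median correlation of -0.0124 over 13 pairs, 4 of them over 0.1. These pairs include libraries with different letters and leave out WT tumor 2 with WT TDLN 1, which share a letter. The check thus cannot decide whether libraries with the same letter are paired, and no pairing was used in the main tests. A library of 15828 reads allows a share of up to 0.0190% at a count of 0, so absence below that level could not be seen in WT TDLN 4.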
